A study of Mus musculus with 2 samples.

Results

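Ccl3, Ccl4, Ccl5, Ccl6 and Ccl9 are chemokine genes and Ccr1 is a chemokine receptor gene. They were chosen by symbol, and all 6 were present among the 32285 genes measured in leukocytes of the diseased kidney. The data are 1 single-cell RNA-seq library of kidney cells from B6 mice with aristolochic acid nephropathy (AAN), a chronic kidney disease (CKD) caused by plant toxins, at week 2 by the time label. The cells had been sorted for CD45, the surface protein of nearly all leukocytes, and carried hashtags, antibody-borne barcodes that mark the hashed sample a cell came from. Hashed sample 1 and hashed sample 2 shared genotype, disease and capture, none of the cells used here came from an untreated kidney, and the title of the sample names 1 mouse and both week 1 and week 2. The labels do not say that the hashed samples are separate animals, and no p-value is given: differences between classes of cells are shown for each hashed sample. The organism label, the reference and the gene identifiers are mouse. The cell type label names mesenchymal stem cells and the protocol names human kidneys, whereas fibroblast or pericyte markers (Col1a1, Col3a1, Pdgfrb and Dcn) together gave at most 6.74 of every 1000000 molecules counted in the T, NK, macrophage, monocyte and dendritic classes, which leukocyte markers define.

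Chemokines are small secreted proteins that bind receptors coupled to G proteins and draw leukocytes along a gradient. Ccl3 and Ccl5 are ligands of Ccr1, and Ccl4 is a close relative of Ccl3. Ccl6 and Ccl9 are mouse chemokines of myeloid cells that act through Ccr1. In the injured kidney these ligands are known for attracting monocytes and T cells. Activated macrophages and lymphocytes induce Ccl3 and Ccl4 within a short time, and memory and cytotoxic lymphocytes keep Ccl5 messenger RNA ready.

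The 5 ligand genes lie in 1 cluster on chromosome 11 of GRCm38, spanning 138906 bases, and all 6 genes are protein coding in GENCODE M21. Ccl5 (ENSMUSG00000035042, minus strand) lies at chr11:83525778-83530518, Ccl9 (ENSMUSG00000019122, minus) at chr11:83572919-83578636 and Ccl6 (ENSMUSG00000018927, minus) at chr11:83587882-83593087. Ccl3 (ENSMUSG00000000982, minus) lies at chr11:83647844-83649355 and Ccl4 (ENSMUSG00000018930, plus) at chr11:83662584-83664683. Ccr1 (ENSMUSG00000025804, minus) lies at chr9:123962124-123968692. A non-coding gene on the other strand, E230016K23Rik, overlaps Ccl6, and the strand setting of the count is not given in the sources used here.

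The RefSeq promoter table (GRCm38.p6) held 4 of the 6 genes. The 140 bases before the start are shown for Ccl6 and Ccl9, because these neighbouring genes had the most similar levels across cell classes of any pair of the members, with capitals for stretches of at least 10 bases that the other promoter also holds, and for Ccl3 and Ccr1 with capitals for motif matches.
Ccl6, chr11:83593088-83593227, minus strand: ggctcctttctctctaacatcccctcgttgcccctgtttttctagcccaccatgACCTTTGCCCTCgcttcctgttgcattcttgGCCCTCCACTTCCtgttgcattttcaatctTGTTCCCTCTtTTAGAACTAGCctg
Ccl9, chr11:83578637-83578776, minus strand: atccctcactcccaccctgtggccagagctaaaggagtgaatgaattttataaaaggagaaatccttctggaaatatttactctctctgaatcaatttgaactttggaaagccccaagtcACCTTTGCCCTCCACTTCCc
Ccl3, chr11:83649379-83649518, minus strand: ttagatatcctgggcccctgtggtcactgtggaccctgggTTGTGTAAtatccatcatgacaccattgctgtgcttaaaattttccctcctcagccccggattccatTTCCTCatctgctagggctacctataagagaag
Ccr1, chr9:123968693-123968832, minus strand: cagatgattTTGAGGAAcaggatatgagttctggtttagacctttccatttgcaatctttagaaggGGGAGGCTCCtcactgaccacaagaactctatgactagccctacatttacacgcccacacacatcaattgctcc
Each full promoter entry holds 250 bases before the start and 50 after it. In a local alignment of the full promoter entries of Ccl6 and Ccl9, 58 of 74 columns were identical, and 46 bases of Ccl6 and 19 bases of Ccl9 shown here stand in capitals. The aligned stretch ran from 59 bases before the start to 15 after it in Ccl6. In Ccl9 it ran from 18 bases before the start to 49 after it, mostly beyond the bases shown. The longest alignment between any other pair of the 4 entries had 19 columns. In Ccl3, the C/EBP letters TTNNGNAA matched 100 bases before the start and the PU.1 core GAGGAA matched on the other strand 33 bases before it. In Ccr1 the same 2 motifs overlapped, 131 and 129 bases before the start, and the NF-kB consensus matched 74 bases before it. Both strands were searched in all 32851 promoters of 300 bases, of which 40.7% held the C/EBP letters, 28.3% the PU.1 core and 8.46% the NF-kB consensus, so that matches of this kind are common. The AP-1 letters TGANTCA, present in 7.81% of promoters, matched in Ccl9 only among the 4. Ccl9 also held the C/EBP letters 75 and 38 bases before the start and the NF-kB consensus on the other strand 35 bases before it. The TATA box letters TATAAA, searched on the gene's strand alone and present in 8.32% of promoters, matched in Ccl9 92 bases before the start.

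After filtering, 3089 and 3467 cells remained, with medians of 5669 and 6568 UMIs, the unique molecular identifiers that count captured RNA molecules. Where values are paired, hashed sample 1 comes first. Cells were put into classes by marker genes, none of which is a member: CD4 T (283 and 115 cells), CD8 T (218 and 122), T cells with neither Cd4 nor Cd8 (292 and 131), NK (28 and 14), macrophages with high C1qa, C1qb and C1qc (1124 and 1740), myeloid cells with intermediate C1q (228 and 314), classical monocytes (84 and 77), patrolling monocytes (33 and 44), type 1 (29 and 60), type 2 (113 and 274) and migratory (60 and 43) dendritic cells and neutrophils (12 and 24). The UMIs of a gene were summed over a class and scaled to 1000000 UMIs of that class (CPM). Intervals are exact 95% Poisson intervals and cover counting error only. The summed C1q genes, which T cells are not known to make, reached 255 and 329 CPM in CD4 T cells, whereas C1q macrophages had 18300 and 17940 CPM. Free RNA in the droplets or doublets left in can give such a signal, and the 2 were not told apart. It depends on the level of a gene in the cells that make it and is no fixed CPM. Values of myeloid genes in T cells are therefore to be read beside their levels in macrophages.

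**Figure D1:**
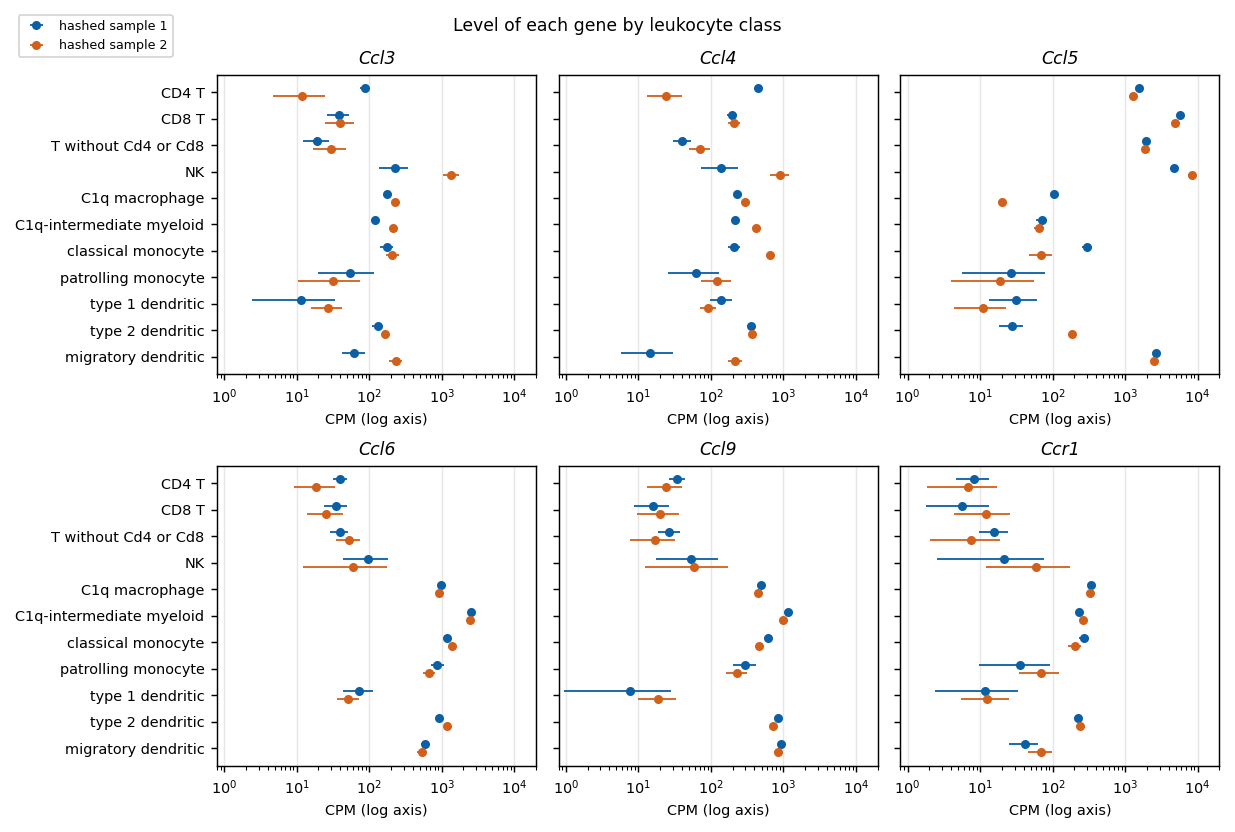
CPM of each gene (log axis) in 11 classes of leukocytes, with exact 95% Poisson intervals, for both hashed samples. Ccl5 was highest in NK, CD8 T and migratory dendritic cells, Ccl6 and Ccl9 were highest in myeloid cells with intermediate C1q, and Ccr1 was highest in C1q macrophages. Ccl3 and Ccl4 differed between hashed samples in NK and CD4 T cells.

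Ccl5 was highest in cytotoxic lymphocytes. Its level was 4680 and 8270 CPM in NK cells, 5694 and 4865 CPM in CD8 T cells, 1970 and 1888 CPM in T cells with neither coreceptor, and 1580 and 1288 CPM in CD4 T cells. NK and CD8 T cells overlapped, whereas CD8 T cells stood above CD4 T cells in both hashed samples. The ratio was 3.6-fold (interval 3.45 to 3.77) and 3.78-fold (3.48 to 4.10), or 1.84 and 1.91 on the log2 scale with 10 CPM added. After each cell was thinned to 1000 UMIs, 87.2% and 84.5% of CD8 T cells and 59.0% and 51.8% of CD4 T cells held a Ccl5 UMI, against 4.89% and 1.51% of C1q macrophages. CD4 T cells with a UMI of Foxp3, the regulator of regulatory T cells, held 1260 and 1338 CPM and those without one 1617 and 1280 CPM. CD8 T cells with a UMI of Gzmk, a granzyme, held 5530 and 5276 CPM and those without one 5782 and 4692 CPM. Neither marker therefore divided the T cells into a high and a low Ccl5 level in both hashed samples.

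Migratory dendritic cells, the mature dendritic cells that leave tissue for the lymph node, formed a non-lymphocyte source of Ccl5. They held 2658 and 2481 CPM, and 62.7% and 58.5% of them had a UMI after thinning. The T cell markers summed to 10.3 and 4.72 CPM in them, and to 3691 and 3678 CPM in CD4 T cells. Type 2 dendritic cells, which present antigen to CD4 T cells, held 27.2 and 184 CPM, and type 1 dendritic cells held 30.9 and 11 CPM. In type 2 dendritic cells of hashed sample 2, 1 cell held 131 of the 485 UMIs, and the level without these 131 UMIs was 134 CPM. T and NK cells together held 62.2% and 48.0% of all Ccl5 UMIs, beside 20.88% and 6.804% of the UMIs of all genes. All dendritic classes together held 7.43% and 16.0% of Ccl5 UMIs, close to their 8.824% and 14.97% of the UMIs of all genes. Cells that were put into no class held 23.58% and 29.37% of Ccl5 UMIs and 17.48% and 11.65% of the UMIs of all genes.

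C1q macrophages had little Ccl5, 104 and 20.1 CPM, and a small share of them carried much of it. The macrophages with at least 8 UMIs per 10000 of an interferon set (Cxcl9, Cxcl10, Rsad2, Ifit1, Ifit2 and Ifit3) numbered 72 and 55 cells. Their Ccl5 level was 689 and 104 CPM against 62.3 and 17.1 CPM in all other C1q macrophages, an 11.1-fold and 6.08-fold ratio that was 8.69-fold and 4.18-fold without the cell with most Ccl5 UMIs. These cells held 43.9% and 17.7% of the Ccl5 UMIs of the class with 6.61% and 3.41% of its UMIs. Their T cell markers summed to 11.7 and 11.3 CPM, close to the 10.1 and 8.55 CPM of the other macrophages, and their median depth was 6343 and 8107 UMIs against 6335.5 and 6953. In intermediate cells, where 9 and 8 cells passed the same level, Ccl5 stood at 427 against 48.7 CPM in hashed sample 1 and, on 2 UMIs, at 35.7 against 66.6 CPM in hashed sample 2, so that the hashed samples differed in direction there. The macrophages with the interferon set had less Ccl6 than the others, 422 and 523 CPM against 1012 and 944 CPM.

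Ccl4 was found in CD8 T cells as well as in NK cells and myeloid classes, whereas Ccl3 was found mainly in myeloid classes and NK cells. T cells of all classes held 8.96% and 0.91% of all Ccl3 UMIs and 24.5% and 2.07% of all Ccl4 UMIs. They held 20.4% and 6.6% of the UMIs of all genes. In hashed sample 1 a single CD4 T cell, described below, held 730 of the 4514 Ccl4 UMIs. C1q macrophages and myeloid cells with intermediate C1q together held 63.5% and 72.6% of all Ccl3 UMIs and 47.9% and 63.3% of all Ccl4 UMIs. They held 47.7% and 62.1% of the UMIs of all genes together, so that the share of Ccl4 in them was close to their share of all RNA counted. The Ccl3 level was 179 and 228 CPM in C1q macrophages, 176 and 208 CPM in classical monocytes, 121 and 211 CPM in intermediate cells and 131 and 168 CPM in type 2 dendritic cells. Each of these neighbours in the order overlapped with the next. Patrolling monocytes, the Ly6c-low monocytes of the vessel wall, held 54.0 and 31.7 CPM, and type 1 dendritic cells held 11.6 and 26.7 CPM.

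NK cells had the highest mean Ccl3 level, but the hashed samples differed widely. Their Ccl3 level was 224 CPM from 21 UMIs in hashed sample 1 and 1349 CPM from 68 UMIs in hashed sample 2. There 1 cell held 26 of the 68 UMIs, and the level without these 26 UMIs was 833 CPM. The Ccl4 level of NK cells was 139 and 893 CPM, from 13 and 45 UMIs. The NK class held only 28 and 14 cells, which limits both values. CD8 T cells had little Ccl3, 38.2 and 39.7 CPM, and more Ccl4, 196 and 211 CPM, with 17.0% and 19.8% of thinned cells holding a Ccl4 UMI. All 37 and 23 thinned CD8 T cells with Ccl4 also had Ccl5, against 84.5% and 80.7% of those without Ccl4.

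For Ccl4, classical monocytes held 209 and 650 CPM, type 2 dendritic cells 353 and 376 CPM, intermediate cells 216 and 426 CPM and C1q macrophages 228 and 294 CPM. The first 3 of these overlapped, and the macrophages lay below the type 2 dendritic cells in both hashed samples. CD4 T cells showed 454 CPM in hashed sample 1 and 23.8 CPM in hashed sample 2. In hashed sample 1 a single cell held 730 of the 881 Ccl4 UMIs, and the level without these 730 UMIs was 77.7 CPM. That cell had 6932 UMIs, of which 10.5% were Ccl4, together with 137 UMIs of Ccl1, a chemokine of activated T cells, 97 of Ccl3, 80 of the granzyme gene Gzmb, 41 of Ccl5 and 7 of Ifng. It had 1 UMI of Cd4, none of Cd8a or Cd8b1 and none of C1qa, and its doublet score exceeded that of 99.8% of cells without being called a doublet. The CD4 T level of Ccl3, 87.0 and 11.9 CPM, was 37.1 CPM in hashed sample 1 without the Ccl3 UMIs of that cell.

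Within C1q macrophages, Ccl3 and Ccl4 were held by few cells. The top 5% of macrophages by UMIs of the gene held 57.3% and 53.0% of the Ccl3 UMIs and 77.0% and 69.5% of the Ccl4 UMIs. For Ccl6 that share was 47.6% and 41.7%, for Ccl9 31.4% and 27.1%, and for Ccr1 18.6% and 18.0%. Ccl3 and Ccl4 were often in the same cells. After thinning, 37.6% and 38.1% of macrophages with Ccl3 had Ccl4, against 6.23% and 7.06% of those without Ccl3. In intermediate cells the shares were 28.6% and 54.5% against 7.25% and 16.6%. Ccr1 was found in 22.4% and 28.3% of macrophages with Ccl3 and in 28.5% and 29.5% of those without it.

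**Figure D2:**
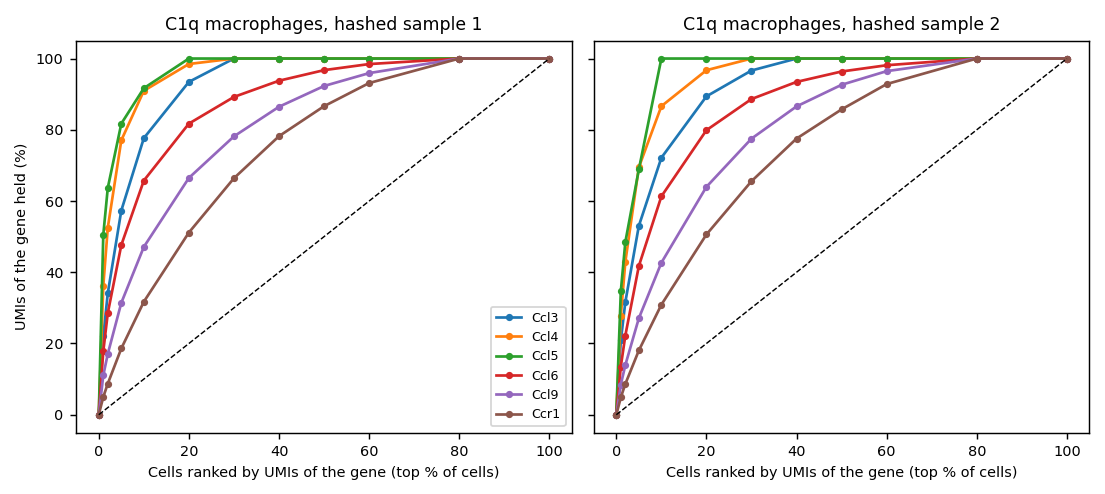
Share of each gene's UMIs (vertical axis, %) held by the top share of C1q macrophages ranked by UMIs of that gene (horizontal axis, %), in each hashed sample; the dashed line is an even spread. Ccl4 and Ccl5 rise most steeply, and Ccr1 lies nearest to the even spread. Ccl5 had only 804 and 260 UMIs in 1124 and 1740 cells, too few to reach the even spread.

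Among C1q macrophages, genes of a dissociation stress list moved with Ccl3 and Ccl4. The list holds 16 early response and heat shock genes that tissue digestion is known to induce, among them Fos, Jun, Egr1 and Hspa1a. C1q macrophages at or above the median of the list had 322 and 389 CPM of Ccl3 against 37.0 and 74.3 CPM below it, an 8.72-fold and 5.23-fold ratio. For Ccl4 the levels were 440 and 547 CPM against 18.2 and 53.8 CPM, or 24.1-fold and 10.2-fold. Depth was alike, with medians of 6244 and 6803 UMIs against 6437 and 7106. Ccl6, with 1155 and 1184 against 794 and 689 CPM, and Ccl9, with 574 and 534 against 418 and 357 CPM, differed less. Ccr1, with 311 and 320 against 375 and 337 CPM, was slightly lower. Ccl4 was also higher with the list in other classes: 361 and 935 against 81.5 and 387 CPM in classical monocytes, 497 and 510 against 199 and 252 CPM in type 2 dendritic cells, and 255 and 311 against 144 and 111 CPM in CD8 T cells. It was not in migratory dendritic cells of hashed sample 1, with 12.7 against 16.1 CPM, or in CD4 T cells of hashed sample 2, with 19.4 against 27.1 CPM. The Ccl3 ratio was 4.8-fold and 5.3-fold in classical monocytes and 1.8-fold and 5.2-fold in migratory dendritic cells. It was 1.5-fold and 2.1-fold in intermediate cells and only 1.4-fold and 1.3-fold in type 2 dendritic cells. The part of digestion in the Ccl3 and Ccl4 levels was not tested.

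**Figure D3:**
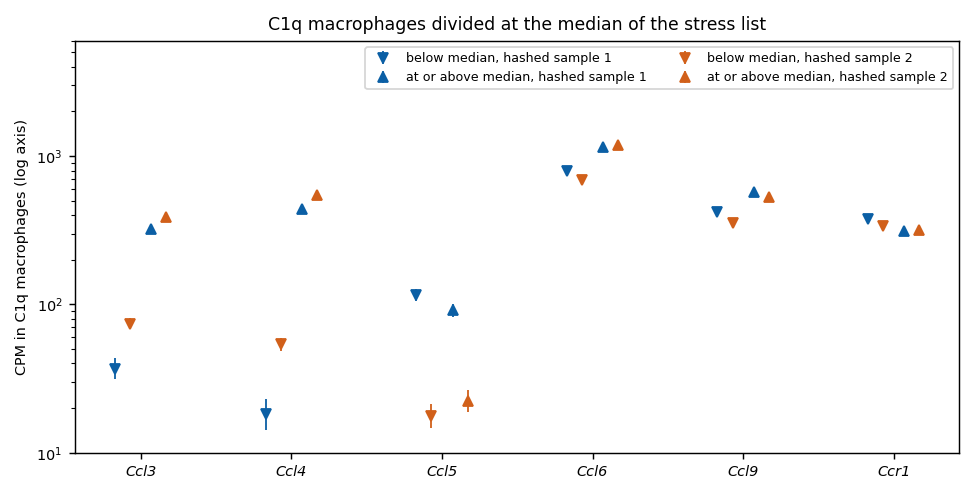
CPM (log axis, exact 95% Poisson intervals) of each gene in C1q macrophages below and at or above the median of the summed stress list, in each hashed sample. Ccl3 and Ccl4 differ by at least 5.23-fold between the cells, whereas Ccl5 and Ccr1 differ little.

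Ccl6 and Ccl9 were found in nearly every phagocyte class and were highest in the same class, the intermediate cells. The Ccl6 level was 2540 and 2466 CPM in intermediate cells, 1186 and 1379 CPM in classical monocytes, 932 and 1191 CPM in type 2 dendritic cells, 973 and 930 CPM in C1q macrophages, 873 and 678 CPM in patrolling monocytes and 586 and 528 CPM in migratory dendritic cells. Intermediate cells stood apart above all other classes in both hashed samples, and macrophages and type 2 dendritic cells overlapped. The Ccl9 level was 1163 and 1001 CPM in intermediate cells, 926 and 835 CPM in migratory dendritic cells, 838 and 720 CPM in type 2 dendritic cells, 614 and 461 CPM in classical monocytes and 496 and 443 CPM in C1q macrophages. In migratory dendritic cells 1 cell in each hashed sample held 25.8% and 25.4% of the Ccl9 UMIs, and the levels without those UMIs were 687 and 623 CPM. Migratory dendritic cells ranked second for Ccl9 on the mean but overlapped with type 2 dendritic cells, which held 743 and 710 CPM without the Ccl9 UMIs of their top cell. After thinning, 30.5% and 24.4% of migratory and 46.0% and 47.8% of type 2 dendritic cells had a Ccl9 UMI. For Ccl6, migratory dendritic cells ranked below patrolling monocytes.

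Type 1 dendritic cells, which cross-present antigen to CD8 T cells, were the exception among the phagocytes. They held 73.5 and 51.9 CPM of Ccl6 and 7.74 and 18.9 CPM of Ccl9, and Ccr1 stood at 11.6 and 12.6 CPM. Their median depth, 8776 and 10482 UMIs, was above that of the macrophages, 6335.5 and 6961. CD4 T cells held 39.6 and 18.7 CPM of Ccl6 and 34.5 and 23.8 CPM of Ccl9. C1q macrophages held 973 and 930 CPM of Ccl6 and 496 and 443 CPM of Ccl9. The part of free RNA or doublets in the T cell values was not tested. Neutrophils, with 12 and 24 cells, held 1546 and 1046 CPM of Ccl6 and 482 and 481 CPM of Ccl9.

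Macrophages with tissue repair and lipid genes carried more of both. C1q macrophages with at least 20 UMIs per 10000 of Arg1, Mmp12, Lpl, Fabp5 and Gpnmb numbered 50 and 90 cells. They held 3517 and 2769 CPM of Ccl6 against 739 and 791 CPM in all other C1q macrophages, a 4.76-fold and 3.50-fold ratio. For Ccl9 the levels were 1194 and 961 CPM against 431 and 404 CPM, or 2.77-fold and 2.38-fold, and for Ccr1 247 and 242 against 352 and 335 CPM. Without the cell with most UMIs the Ccl6 ratios were 4.56-fold and 3.36-fold. The same set divided the intermediate cells, with 3877 and 3768 against 1948 and 1725 CPM of Ccl6 and 1905 and 1431 against 834 and 756 CPM of Ccl9. Macrophages with the set were deeper, with medians of 12751.5 and 9458.5 UMIs against 6270.5 and 6891, and had less C1q, 13420 and 14700 against 18750 and 18180 CPM. Their summed stress list, described above, was higher as well, at 32.1 and 41.1 against 20.5 and 23.1 UMIs per 10000. The part of depth, C1q level and the stress list in this difference was not tested.

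**Figure D4:**
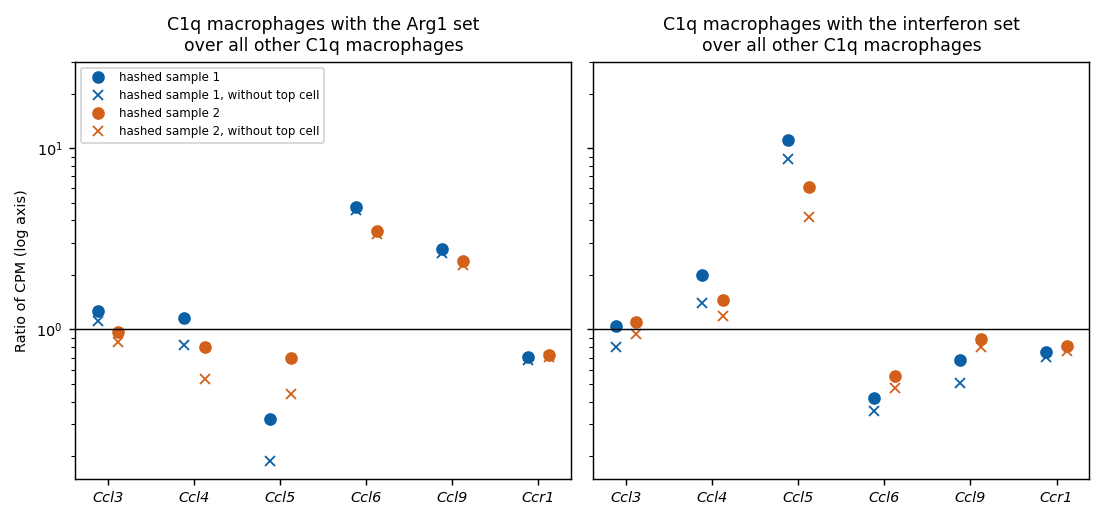
Ratio of CPM (log axis) of each gene in C1q macrophages with the Arg1 set (left) or the interferon set (right) over all other C1q macrophages, for both hashed samples, with (circles) and without (crosses) the cell with most UMIs. Ccl6 and Ccl9 are higher with the Arg1 set, and Ccl5 is higher with the interferon set.

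Ccl6 and Ccl9 also shared cells. Among thinned C1q macrophages, 39.8% and 43.5% of those with Ccl6 had Ccl9, against 21% and 21.2% of those without it. In type 2 dendritic cells the shares were 45.5% and 46.6% against 46.6% and 49.2%, so that no such difference was seen there. Levels were also compared across the 10 classes of at least 30 cells in each hashed sample (20 points that share 1 library). These include droplets with kidney tubule markers (41 and 49) and leave out NK cells, type 1 dendritic cells and neutrophils. Across them, log2 levels of Ccl6 and Ccl9 correlated with Pearson's r of 0.95, Ccl3 and Ccl4 with 0.74, and Ccl5 and Ccl6 with -0.78. By the same measure over 4432 genes, the genes most like Ccl6 were Clec4n, a lectin receptor, Csf2ra, the receptor of GM-CSF, and Psap, a lysosomal precursor protein (r = 0.98 for each). Those most like Ccl9 were Ptafr, Ctsz and Lgals3, those most like Ccl3 were Ccl2, Creb5 and Cmtm3 (0.85 for each), and those most like Ccl5 were Gramd3, Rabgap1l and Stat4, with r from 0.93 to 0.90. The gene most like Ccl4 was Tiparp, at 0.75, and that most like Ccr1 was Gnaq, a G protein subunit, at 0.98.

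Ccr1, the receptor of Ccl3, Ccl5, Ccl6 and Ccl9, was a myeloid gene. Its level was 343 and 328 CPM in C1q macrophages, 304 and 324 CPM in neutrophils, 234 and 265 CPM in intermediate cells, 272 and 204 CPM in classical monocytes and 224 and 238 CPM in type 2 dendritic cells. Migratory dendritic cells held 41.3 and 68.4 CPM, patrolling monocytes 36.0 and 69.7 CPM, and CD4 and CD8 T cells at most 11.9 CPM. After thinning, 27.8% and 29.4% of macrophages, 19.5% and 19.7% of type 2 dendritic cells and 1.06% and 1.75% of CD4 T cells held a Ccr1 UMI.

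Ccrl2, a receptor that binds chemerin without signalling, held 56.9 and 58.4 CPM in C1q macrophages and 121 and 149 CPM in intermediate cells. Ccr3, the eosinophil receptor of Ccl5, was at most 0.39 CPM in C1q macrophages and 3.15 and 3.73 CPM in T cells with neither coreceptor. In neutrophils of hashed sample 2 it was 16.6 CPM, below the 24.9 CPM that 3 UMIs give there. Ccr1l1 and Ackr2 had no UMI in any of the classes named here.

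For the comparisons of classes, only genes of 50 CPM or more in 1 of the paired classes, in each hashed sample, were counted as measured. A gene was called when both hashed samples gave a ratio, with 10 CPM added to both classes, past 1.5-fold in one direction. CD8 T cells against CD4 T cells gave 1 of 2 measured members, Ccl5, as higher and none as lower, where 1.94% of 2790 genes were higher and 2.8% were lower. Without the cell with most UMIs of a gene in each class, Ccl4 was also higher, with a mean log2 ratio of 2.00. Of 12 cytotoxic genes on a pathway list, 7 were measured and 3 were higher, Nkg7, Gzmk and Runx3.

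NK cells against CD8 T cells gave Ccl3, Ccl6 and Ccl9 as higher of 5 measured members, where 10.8% of 2929 genes were higher and 7.37% were lower. The Ccl3 ratio was 5.87-fold (3.24 to 10.4) and 33.9-fold (20.4 to 59.0). The calls of Ccl6 and Ccl9 rested on 3 to 9 UMIs in NK cells and were lost without the cell with most UMIs, at -0.035 and 0.59 on the log2 scale. The call of Ccl9 was also lost with factors from the trimmed mean of M-values (TMM) and with stricter gates, and that of Ccl6 with a 2-fold rule. Ccl4, with -0.46 and 2.03, and Ccl5, with -0.28 and 0.76, differed in sign between the hashed samples. Of 12 cytotoxic genes, 10 were measured, 5 were higher and Gzmk was lower.

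C1q macrophages against classical monocytes gave none of 6 members as higher and Ccl5 as lower, where 7.42% of 2762 genes were higher and 6.44% were lower. The Ccl5 level was 104 and 20.1 CPM in macrophages and 298 and 68.7 CPM in monocytes, and in hashed sample 1 a single monocyte held 79 of 161 UMIs. The call was lost without the cell with most UMIs, at -0.83 on the log2 scale. Ccl3, with 0.03 and 0.12, differed by less than counting error. Of 6 other chemokine ligands on a pathway list, 5 were measured, Ccl2, Ccl7, Ccl8 and Ccl12 were higher and Ccl24, an eosinophil attractant, was lower. Ccl2, the main attractant of monocytes, stood at 550 and 909 CPM in macrophages and 288 and 235 CPM in monocytes. Of the 16 stress genes, 10 of 15 measured were lower in macrophages.

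C1q macrophages against type 2 dendritic cells gave none of 6 members as higher and Ccl9 as lower, where 12.7% of 2738 genes were higher and 8.95% were lower. The Ccl9 ratio was -0.75 and -0.69 on the log2 scale and was not called under a 2-fold rule. With classes from clusters it was -0.22 on average and not called. Ccl3, at 0.42 and 0.42, and Ccr1, at 0.59 and 0.45, were above the dendritic cells without passing 1.5-fold in both. Ccl2, Ccl7, Ccl8 and Ccl12 were higher in the macrophages, and 10 of 15 measured stress genes and 5 of 9 measured NF-kB genes were lower.

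C1q macrophages against CD4 T cells gave 4 of 6 members as higher, Ccl3, Ccl6, Ccl9 and Ccr1, and Ccl5 as lower, where 21.2% of 3233 genes were higher and 25.4% were lower. The ratio was 24.6-fold and 49.8-fold for Ccl6, 14.4-fold and 18.7-fold for Ccl9 and 41.7-fold and 48.4-fold for Ccr1. The Ccl4 ratio was -0.96 and 3.17 on the log2 scale. Without the cell with most UMIs Ccl4 was called higher, with a mean of 2.42. The call of Ccl3 was lost under a 2-fold rule. The median log2 ratio of the members was 2.23 and 3.59, beside -0.28 and -0.23 for all measured genes.

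Macrophages with the Cd163 set (Cd163, Lyve1, Cbr2 and Folr2), markers of long-lived resident macrophages, numbered 68 and 90 cells. Against the other C1q macrophages none of 5 measured members was called, where 5.23% of 2736 genes were higher and 3.07% were lower. Their Ccl3 level was 120 and 85.1 CPM against 183 and 236 CPM, a log2 ratio of -0.57 and -1.37, just short of 1.5-fold in hashed sample 1, and Ccl3 was called lower with TMM factors, with a pseudocount of 1 CPM, with stricter gates, with classes from clusters and without the top cell. With classes from clusters Ccl4 and Ccl6 were also called lower, at -3.03 and -1.40 on the log2 scale on average, and with stricter gates Ccl9 was called higher, at 0.72. Ccr1 was 415 and 375 CPM against 338 and 326 CPM. Of the stress genes, 8 of 14 measured were lower in these macrophages, and their part in the Ccl3 difference was not tested. Among other ligands, Ccl8 was higher, at 3203 and 2856 against 319 and 239 CPM, and so was Ccl12.

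**Figure D5:**
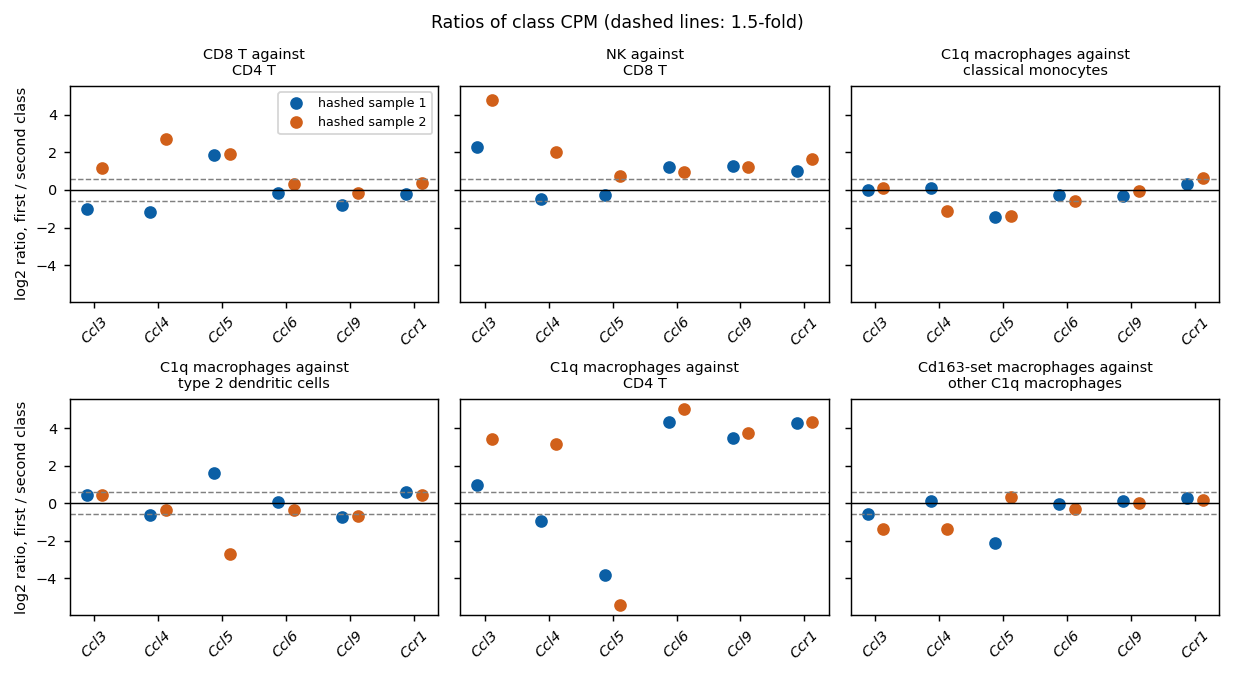
Log2 ratio of CPM (10 CPM added) of each gene in 6 comparisons of classes, for both hashed samples; dashed lines mark 1.5-fold. Ccl5 lies above the lines for CD8 T against CD4 T cells in both hashed samples, and Ccl6, Ccl9 and Ccr1 lie above them for macrophages against CD4 T cells.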

How the data were processed

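Single-cell 3' RNA-seq was made from CD45-sorted kidney cells. The authors deposited whole-number UMI counts for each gene in each cell. Cell Ranger 6.1.1 made them, per the file headers. The processing notes of the submitters list mm10, Seurat 4.3.0 and Cell Ranger 6.0. The matrices held 3315 and 3700 barcodes with 20743037 and 25314154 UMIs, and no barcode was shared. A filter of at least 200 genes and 500 UMIs and no more than 10% mitochondrial UMIs took out 414 barcodes, and 45 doublets (Scrublet in scanpy 1.11.5, or hashtags) were removed. Classes were gated from summed markers, and 523 and 438 cells stayed ungated. Names and sizes of classes depend on these gates: 161 and 267 C1q macrophages and 52 and 82 type 2 dendritic cells were less than 1.5-fold from their gate. Ratios given as fold are of CPM with nothing added. For log2 ratios and the fold rule 10 CPM was added to both classes, so that log2 ratios of low genes are too small. Class levels and calls without the top cell leave out only its UMIs of the gene and keep its other UMIs in the total. For the Arg1 and interferon sets the whole cell was left out. The fold rule was tested on simulated data. TMM came from edgeR 4.0.16. Named genes are the 6 members, of each pathway list those with the largest range over classes (at most 4), and the genes most alike. Ccr1l1 and Ackr2, which had no UMI in the classes, were named outside this rule. Genes of a list named because they passed the fold rule were chosen after their values were seen. The members and lists were chosen with earlier results of these data known. Without replicates there was no p-value. Expression on the Visium section was not analysed here. One gene of the receptor list is not reported here.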

Additional observations from a re-analysis of the deposited data

How the results depend on the processing

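The number of members called, higher and lower together, depended on settings in all 6 comparisons, and the cause of each change was not tested. For Cd163-set macrophages against other C1q macrophages the count of 0 became 1 with TMM factors, 1 with a pseudocount of 1 CPM, 2 with stricter gates, 3 with classes from clusters, 1 in hashed sample 1 alone, 2 in hashed sample 2 alone and 1 without the top cell. All genes gave 178 higher and 75 lower of 2723 with stricter gates and 252 and 170 of 2858 with classes from clusters. They gave 281 and 156 of 2962 in hashed sample 1 alone and 261 and 136 of 3078 in hashed sample 2 alone. For C1q macrophages against type 2 dendritic cells the count of 1 became 0 with a 2-fold rule, 2 with classes from clusters, 4 in hashed sample 1 alone and 2 in hashed sample 2 alone. Ccl5 was higher in hashed sample 1 alone and lower in hashed sample 2 alone. All genes gave 461 higher and 306 lower of 2876 in hashed sample 1 alone and 445 and 337 of 2984 in hashed sample 2 alone. With classes from clusters they gave 317 and 215 of 2732, and with a 2-fold rule 191 and 139 of 2738. For CD8 T against CD4 T cells the count of 1 became 2 with stricter gates, 3 in hashed sample 1 alone, 2 in hashed sample 2 alone and 2 without the top cell. In hashed sample 1 alone Ccl5 was higher and Ccl3 and Ccl4 were lower, whereas Ccl4 was higher under the other settings named. All genes gave 162 higher and 303 lower of 3035 in hashed sample 1 alone and 147 and 291 of 3074 in hashed sample 2 alone. With stricter gates they gave 75 and 113 of 2780. For macrophages against classical monocytes the count of 1 became 2 with stricter gates, 3 in hashed sample 2 alone and 0 without the top cell. All genes gave 223 higher and 255 lower of 2805 with stricter gates and 386 and 384 of 3107 in hashed sample 2 alone. For NK against CD8 T cells the count of 3 became 2 with TMM factors, 4 with no level needed, 2 with a 2-fold rule, 2 with stricter gates, 6 in hashed sample 2 alone and 1 without the top cell, where Ccl6 changed sign, at -0.035 on the log2 scale. For macrophages against CD4 T cells the count of 5 became 4 with a 2-fold rule and 6 with stricter gates, in each hashed sample alone and without the top cell. Leaving out the top cell was chosen after seeing the data. TMM factors moved the median log2 ratio of all genes to -0.34 for NK against CD8 T cells and changed the genes higher and lower from 315 and 216 to 143 and 484 there, from 684 and 820 to 911 and 460 for macrophages against CD4 T cells, from 348 and 245 to 284 and 295 against type 2 dendritic cells, from 143 and 84 to 92 and 108 for Cd163-set macrophages and from 54 and 78 to 69 and 67 for CD8 T against CD4 T cells. Among classes of at least 30 cells in each hashed sample, which leaves out NK cells, the highest class for Ccl3 moved from C1q macrophages to classical monocytes with stricter gates, and the highest class became C1q macrophages for Ccl6 and type 2 dendritic cells for Ccl9 with classes from clusters, where no cluster matched the intermediate cells or NK cells, so that the NK comparison had no value there. Of 372 log2 ratios of single members under alternatives, 26 had the other sign, and 1 of these was of a called member. Every ratio was taken between classes of the same hashed sample. Classes of few UMIs limit precision: a count of 3 corresponds to 32.1 and 59.5 CPM in NK cells and to 76.1 and 24.9 CPM in neutrophils.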
